A study of Mus musculus with 6 samples.

Results

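The RNA of 10 genes whose proteins carry out or assist ER-associated degradation was followed in the hippocampus of mice given methamphetamine (MA) or saline. The genes are Herpud1, Sel1l, Syvn1, Derl1, Derl2, Edem1, Edem2, Edem3, Os9 and Vcp. They were taken by gene symbol with no cutoff on their values, although earlier results of these data were known when they were chosen. They make up 10 of the 16060 rows of the table that the authors deposited. All 10 passed the filter on low values, which kept 13321 rows for testing. Herpud1 is also among the genes that the study drew in its pathway figure from these libraries, so its difference is not independent evidence.

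The series holds 3 libraries labelled Control, from saline-injected mice, and 3 libraries labelled MA, from mice that received MA in doses that were raised week by week. All were adult male C57BL/6 mice that went through behavioral tests before the hippocampus was taken, and the labels describe each library as that of a mouse. No transgene or deletion was involved, so no targeted gene checks the labels. Which group is which is in doubt. The immediate early genes Fos, Egr1, Arc and Nr4a1 and the chaperone cofactor gene Sdf2l1 were lower in each column named MA than in each column named Control, whereas the study describes these genes as higher after MA. The study also reports a qPCR check of Fos, Egr1, Arc and Nr4a1, but not of Sdf2l1, in samples of both groups. It describes the genes checked as generally higher after MA in that assay too. The qPCR values are not part of the table. Whether the column names or the study's description is exchanged could not be settled from the table alone. Every direction below follows the column names, and if these were exchanged, every sign would turn while the sizes and p-values would stay. In such bulk tissue, fewer cells of a type and less RNA per cell cannot be told apart.

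ER-associated degradation removes proteins that fail to fold in the endoplasmic reticulum (ER). Lectins and mannosidases in the ER lumen mark the misfolded glycoprotein, a membrane complex built around a ubiquitin ligase passes it through the membrane and tags it, and a cytosolic ATPase pulls it out towards the proteasome. Many of the genes are induced by the unfolded protein response (UPR), in which the sensors Ern1, Atf6 and Eif2ak3 report misfolding and the factors Xbp1 and cleaved Atf6 bind elements in target promoters. Neurons and glia use the pathway at rest as well as under stress.

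Those elements were searched in promoter sequence, because Herpud1 and Syvn1 are textbook targets of the response. RefSeq promoter windows of GRCm38.p6, which run from 250 bases before to 50 bases after an annotated start site, were found for 9 of the 10 genes by symbol, with Derl1 as the gene without a window. Of the 32851 windows in that set, 39 (0.119%) hold the ER stress response element (ERSE, CCAAT and CCACG with 9 bases between them) on either strand. Another 12 windows (0.0365%) hold ERSE-II (ATTGG and CCACG with 1 base between them), and 222 (0.676%) hold the UPR element core TGACGTGG. Among the 9 genes, the only ERSE was in Syvn1, the only ERSE-II in Herpud1 and the only UPR element core in Vcp. The relaxed core TGACGTG, present in 2.01% of the windows, was found at the same place in Vcp and in no other of the 9. The short site CCACG, which is part of both ERSE forms and overlaps the core on its other strand, was present in 9 of 9 genes and in 32.8% of all windows. The NF-Y box CCAAT was present in 8 of 9 genes and in 37.4% of windows. This box is part of ERSE and, read on the other strand, of ERSE-II. A gene was counted if any of its windows held the match, whereas the shares are per window, so the 2 are not like for like.

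The 200 bases before the start site are shown for the 3 genes with a full element and for Sel1l, which has none and stands beside Syvn1 in the same complex. Capitals mark every match to these motifs on either strand, and each sequence reads 5′ to 3′ on the strand of the gene. The Herpud1 stretch is chr8:94386229-94386428 on the plus strand and overlaps the annotated antisense gene Gm15890. The ERSE-II of Herpud1 starts 52 bases before the start site. The Syvn1 stretch is chr19:6046376-6046575 on the plus strand, with the ERSE 44 bases before the start. The Vcp stretch is chr4:43000508-43000707 on the minus strand, with the UPR element core 114 bases before the start. The Sel1l stretch is chr12:91849158-91849357 on the minus strand. No annotated gene of GENCODE M21 overlaps the last 3 stretches.
Herpud1: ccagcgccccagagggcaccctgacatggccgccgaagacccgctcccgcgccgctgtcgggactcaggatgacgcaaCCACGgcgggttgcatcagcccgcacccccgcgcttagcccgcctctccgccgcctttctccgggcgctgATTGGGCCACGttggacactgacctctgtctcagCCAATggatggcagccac
Syvn1: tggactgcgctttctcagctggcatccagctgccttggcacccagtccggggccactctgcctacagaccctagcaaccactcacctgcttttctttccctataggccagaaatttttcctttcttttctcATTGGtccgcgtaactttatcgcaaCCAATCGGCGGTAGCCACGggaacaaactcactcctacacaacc
Vcp: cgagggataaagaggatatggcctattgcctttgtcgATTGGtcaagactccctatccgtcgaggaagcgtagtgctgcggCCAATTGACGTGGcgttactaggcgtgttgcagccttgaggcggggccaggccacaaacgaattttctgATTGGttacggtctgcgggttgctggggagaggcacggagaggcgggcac
Sel1l: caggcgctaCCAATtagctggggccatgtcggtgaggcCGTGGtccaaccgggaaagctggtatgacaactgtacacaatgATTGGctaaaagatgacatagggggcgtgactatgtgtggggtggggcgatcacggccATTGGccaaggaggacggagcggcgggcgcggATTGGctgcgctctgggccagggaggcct

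**Figure D1:**
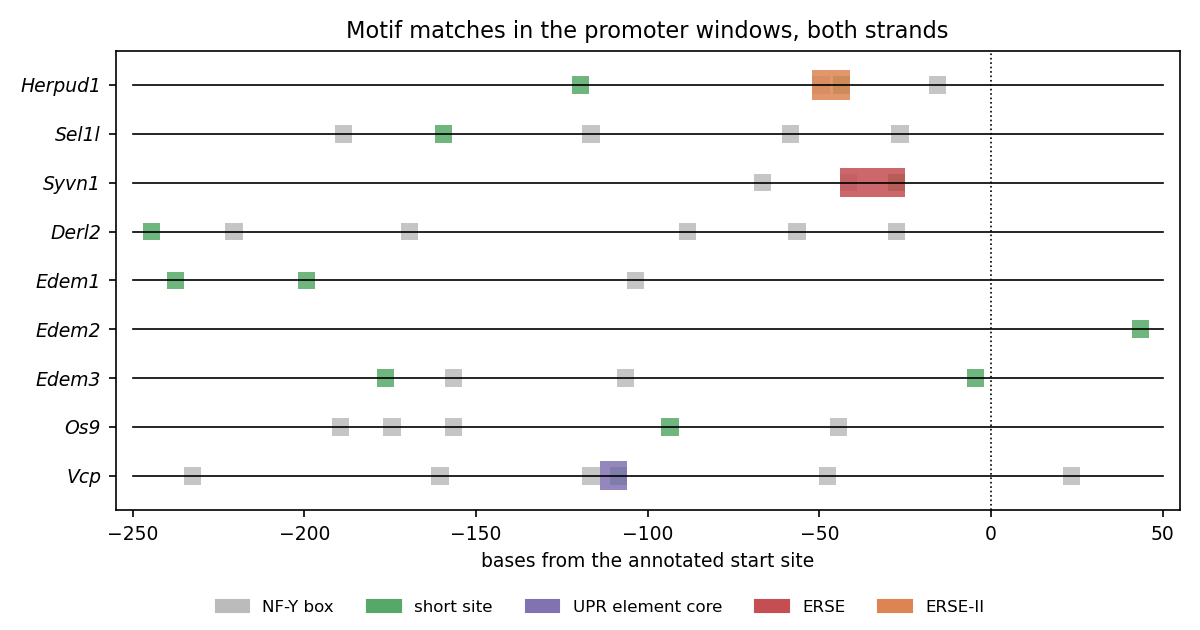
Positions of motif matches in the promoter windows of 9 ER-associated degradation genes, with bases from the annotated start site on the x axis (dotted line at the start) and 1 gene per row. Tall boxes are full elements (ERSE, ERSE-II, UPR element core), of which Syvn1, Herpud1 and Vcp hold 1 each, and low boxes are the short site and the NF-Y box on either strand. The matches of Derl2 lie in 1 of its annotated windows.

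No gene of the 10 passed the adjusted threshold between the groups. In the deposited log2 values, Herpud1 and Sel1l lay lower in each library labelled MA than in each library labelled Control, by 0.39 and 0.29 on average, and the other 8 overlapped between the groups. The test was limma with Benjamini-Hochberg adjustment over the 13321 tested genes, where 35 genes (0.263%) passed an adjusted p of 0.05. The count of 0 members therefore stands beside a background of that size. At an unadjusted p under 0.05, 2 of the 10 members passed, both lower in MA, against 5.46% of all tested genes in that direction. None passed in the other direction, against 4.99%. The 3 MA libraries lay below all 3 Control libraries in 2 of 10 members and in 10.2% of tested genes. They lay above in 0 members and in 7.32% of tested genes. The median log2 fold change of the 10 was -0.10, with 8 lower and 2 higher, beside a median of -0.010 over all tested genes. It was -0.17 without MA replicate 3 and -0.059 with a minimum mean of 5 RPKM, which leaves out Edem1.

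**Figure D2:**
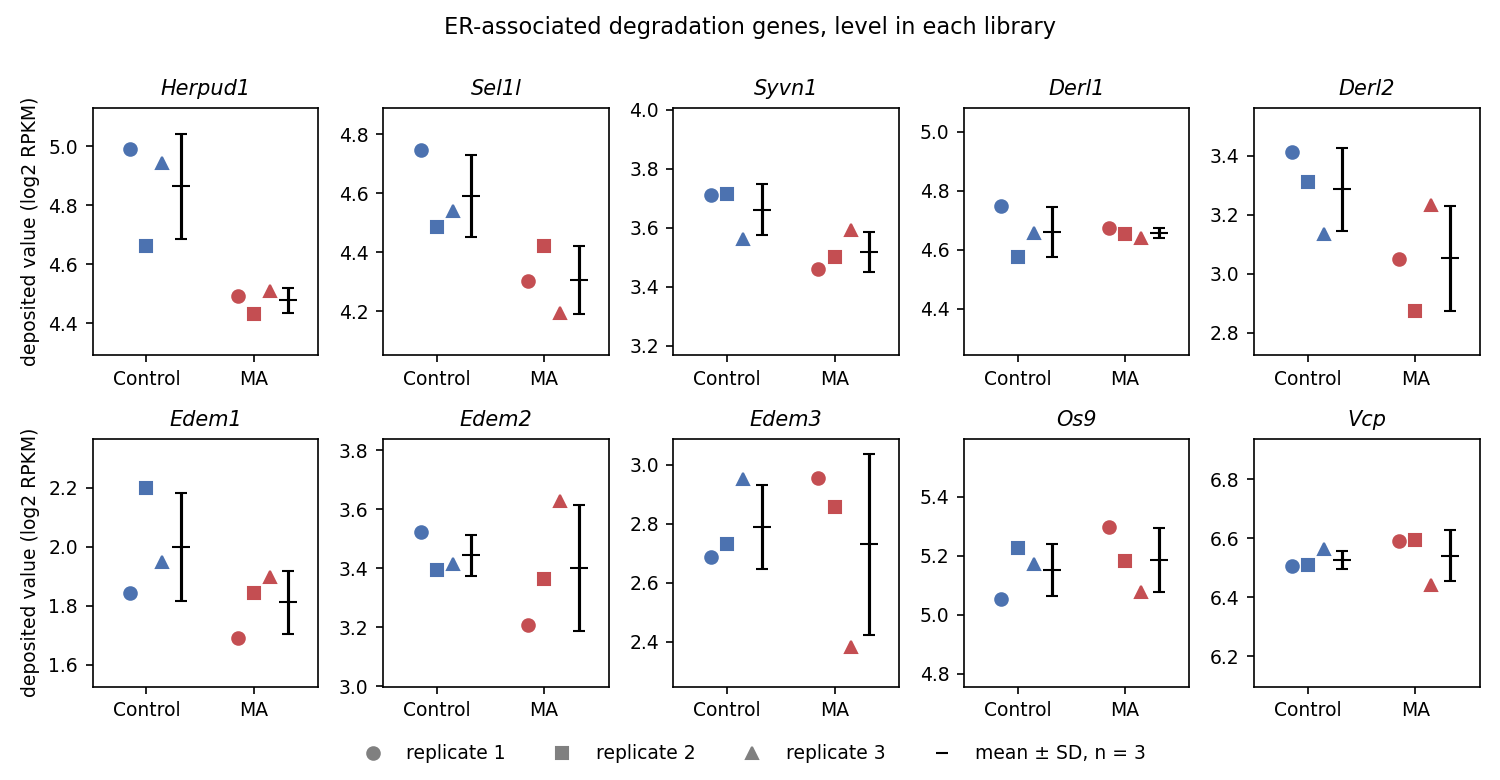
Level of each ER-associated degradation gene in the 6 libraries, as deposited on the log2 scale (y axis, the same height of 0.84 log2 units in every panel), by group (x axis). Symbols mark the replicate number and black bars the mean ± SD of 3 libraries. The groups of Herpud1 and Sel1l do not overlap, and those of the other 8 genes do.

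The ligase complex is described first. Herpud1 is a small ubiquitin-like domain protein of the ER membrane that helps to assemble the complex and is among the most strongly stress-induced genes of the pathway. It lies on chromosome 8 of GRCm38 from 94386438 to 94395377 (ENSMUSG00000031770, plus strand). Its log2 values were 4.99, 4.66 and 4.94 in Control replicates 1, 2 and 3, and 4.49, 4.43 and 4.51 in MA replicates 1, 2 and 3. The MA libraries lay close together and below the Control libraries, with a gap of 0.15 between the highest MA and the lowest Control value, which was that of Control replicate 2. On the back-transformed scale this was 28.3 ± 3.49 RPKM in Control and 21.3 ± 0.632 RPKM in MA (SD, n = 3 each). The log2 fold change was -0.39 (standard error 0.11, 95% interval -0.63 to -0.14), a ratio of MA to Control of 0.765. The limma p was 0.00734 before and 0.277 after adjustment, and Herpud1 ranked at place 347 of the 13321 genes by p. An exact two-sided permutation test gave p = 0.1, the smallest that 3 libraries against 3 allow. The antisense gene Gm15890 overlaps the locus on the other strand without sharing an exonic stretch, and whether the counting used strand is not given in the sources used here.

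Sel1l encodes the adaptor that holds the lumenal lectins against the ligase. It lies on chromosome 12 from 91806043 to 91849157 (ENSMUSG00000020964, minus strand). The log2 values were 4.75, 4.49 and 4.54 in the Control libraries and 4.30, 4.42 and 4.19 in the MA libraries, again in the order of the replicate numbers. The groups were apart by 0.064 at their nearest values, less than the SD of 0.14 in Control and 0.11 in MA. The log2 fold change was -0.29 (standard error 0.11, 95% interval -0.53 to -0.04), with a limma p of 0.0288 and an adjusted p of 0.417. This unadjusted p was 0.108 without Control replicate 1, 0.0505 without Control replicate 3, 0.0635 without MA replicate 1, 0.0562 without MA replicate 3 and 0.0598 with sample quality weights, while that of Herpud1 was at most 0.0323 over all 14 alternatives.

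Syvn1, also known as Hrd1, is the ubiquitin ligase itself. It lies on chromosome 19 from 6046576 to 6053712 (ENSMUSG00000024807, plus strand) and shares exonic bases with Mrpl49 on the other strand. Its log2 values were 3.71, 3.71 and 3.56 in Control and 3.46, 3.50 and 3.59 in MA. MA replicate 3 lay above Control replicate 3, so the groups overlapped. The log2 fold change was -0.14 (95% interval -0.36 to 0.07), with a limma adjusted p of 0.655. Within each library Sel1l stood above Syvn1, by 1.04, 0.77 and 0.98 in Control and by 0.84, 0.92 and 0.60 in MA on the log2 scale of length-normalized values. These differences overlapped between the groups, with means of 0.93 ± 0.14 and 0.79 ± 0.17 (SD, n = 3 each).

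The Derlins are multi-pass membrane proteins of the rhomboid family that form part of the exit route through the membrane. Derl1 lies on chromosome 15 from 57869502 to 57892448 (ENSMUSG00000022365, minus strand). Its log2 values were 4.75, 4.58 and 4.66 in Control and 4.67, 4.66 and 4.64 in MA. The MA values sat inside the Control range, and the log2 fold change was -0.0033 with a 95% interval of -0.19 to 0.19. Derl2 lies on chromosome 11 from 71007164 to 71019841 (ENSMUSG00000018442, minus strand) and shares exonic bases with Mis12 on the other strand. It measured 3.41, 3.31 and 3.13 in Control and 3.05, 2.88 and 3.23 in MA. MA replicate 3 was above Control replicate 3, and the other MA libraries were below all Control libraries. The log2 fold change was -0.23 (95% interval -0.53 to 0.06, limma adjusted p = 0.585). Derl1 exceeded Derl2 in every library, by 1.26 to 1.52 in Control and by 1.41 to 1.78 in MA.

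The lumenal genes mark the client. Edem1, Edem2 and Edem3 are mannosidase-like proteins that trim or recognize sugar chains of misfolded glycoproteins, and Os9 is a lectin that hands the trimmed client to the ligase complex. Edem1 (chromosome 6, from 108828641 to 108859356, ENSMUSG00000030104) was the lowest of the 10, at log2 values of 1.84, 2.20 and 1.95 in Control and 1.69, 1.84 and 1.90 in MA. Edem2 (chromosome 2, from 155701677 to 155729475, ENSMUSG00000038312) measured 3.52, 3.39 and 3.42 in Control and 3.21, 3.36 and 3.63 in MA, where its lowest and its highest value were both MA libraries.

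For Edem3 (chromosome 1, from 151755371 to 151822051, ENSMUSG00000043019) the values were 2.69, 2.73 and 2.95 in Control and 2.95, 2.86 and 2.38 in MA, with MA replicate 3 far below the other 5. For Os9 (chromosome 10, from 127095650 to 127121131, ENSMUSG00000040462) they were 5.06, 5.23 and 5.17 in Control and 5.30, 5.18 and 5.08 in MA. The groups overlapped in all 4 lumenal genes. Their log2 fold changes were -0.19 for Edem1, -0.044 for Edem2, -0.059 for Edem3 and 0.034 for Os9, each with a 95% interval that held 0. The interval was widest for Edem3, from -0.45 to 0.33. The intervals of Edem1, Edem2 and Os9 ran from -0.48 to 0.11, from -0.33 to 0.25 and from -0.18 to 0.25. Their limma adjusted p-values were between 0.679 for Edem1 and 0.939 for Edem2 and Edem3.

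Vcp, the hexameric ATPase that extracts ubiquitinated proteins from the membrane, also serves many processes outside the ER. It lies on chromosome 4 from 42979963 to 43000507 (ENSMUSG00000028452, minus strand) and shares exonic bases with 1700022I11Rik on the other strand. It measured 6.51, 6.51 and 6.56 in Control and 6.59, 6.59 and 6.44 in MA. The groups overlapped, and the log2 fold change of 0.015 had the narrowest interval of the 10, from -0.16 to 0.19 (limma adjusted p = 0.966).

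**Figure D3:**
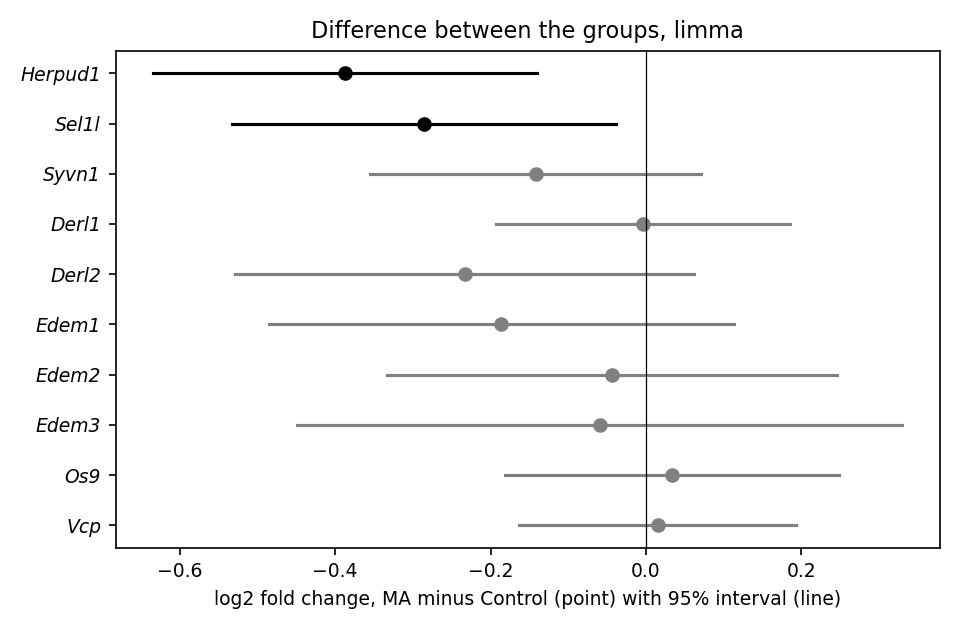
Log2 fold change of each ER-associated degradation gene, MA minus Control, on the x axis (point) with its 95% interval from limma (line), and 1 gene per row. The intervals of Herpud1 and Sel1l, drawn in black, lie below 0 before adjustment for multiple testing, and the other 8 intervals hold 0.

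Because the values are per length, levels can be set beside each other. In Control the order of mean log2 level was Vcp (6.53), Os9 (5.15), Herpud1 (4.86), Derl1 (4.66), Sel1l (4.59), Syvn1 (3.66), Edem2 (3.44), Derl2 (3.29), Edem3 (2.79) and Edem1, the lowest. Vcp was thus at 91.2 RPKM and Edem1 at 3.02 RPKM as group means. The ranges of neighbours overlapped in Control for Herpud1 and Derl1, for Derl1 and Sel1l, and for Edem2 and Derl2. In MA the order was the same except for one exchange, where Derl1 (4.66) stood above Herpud1 (4.48). Herpud1 minus Derl1 within a library was 0.24, 0.085 and 0.28 in Control and -0.18, -0.22 and -0.13 in MA. Its sign thus turned between the groups in each library, in a pair chosen after the values were seen. In MA the ranges of neighbours overlapped for Syvn1 and Edem2, for Edem2 and Derl2, and for Derl2 and Edem3.

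The library labelled MA replicate 3 stood apart from the rest. Its mean Pearson correlation with the others of its group, across tested genes, was 0.978, against 0.984 to 0.993 for the other libraries, and limma gave it a sample weight of 0.194 where the others had 0.937 to 2.45. Without it, Herpud1 was at -0.40 (limma adjusted p = 0.104), Derl2 at -0.32 (limma adjusted p = 0.155), Sel1l at -0.23 and Syvn1 at -0.18. Both remaining MA libraries then lay below all Control libraries in 5 of 10 members (Herpud1, Sel1l, Syvn1, Derl2 and Edem2), where 22.1% of all tested genes did. An unadjusted p under 0.05 was reached by 2 of 10, Herpud1 and Derl2, beside 11.4% of tested genes lower in MA. Edem3 changed sign, to 0.12. No member passed the adjusted threshold in this fit either.

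Markers of other tissue moved with the groups. All 10 of a list of choroid plexus genes, which include the transthyretin gene Ttr, were higher in every MA library than in any Control library. Their summed level was 101, 217 and 477 RPKM in Control replicates 1, 2 and 3 and 1931, 2520 and 5311 RPKM in MA replicates 1, 2 and 3. None of them was listed at 0 in any library. Ttr made up most of each sum, at 57.7, 166 and 410 RPKM in Control and 1744, 2254 and 5033 RPKM in MA. In MA replicate 3 Ttr sat at 12.2976, the highest value of every library. The log2 fold changes of the 10 ran from 1.35 to 4.09, the latter for Ttr. The 5 red blood cell genes summed to 1599 to 2024 RPKM in Control and 3319 to 4378 RPKM in MA. Markers of hippocampal excitatory neurons, which check the labelled tissue, were all present. They summed to 913 to 1010 RPKM in Control and 742 to 1154 RPKM in MA. Of these 8 genes, 2 had an unadjusted limma p under 0.05, both lower, beside 5.46% of all tested genes lower in MA. Thalamic markers summed to 22.4 to 28.4 RPKM in Control and 21.3 to 65.5 RPKM in MA. The sums of the interneuron, astrocyte, oligodendrocyte and microglia lists overlapped between the groups. That of the endothelial list was 154 to 176 RPKM in Control and 170 to 210 RPKM in MA. At the same unadjusted threshold, 2 of 6 endothelial and 1 of 7 thalamic genes were higher in MA, beside 4.99% of tested genes. In the astrocyte list 1 of 6 was lower, and the interneuron, oligodendrocyte and microglia lists had none in either direction. The part of these cell types in the differences of the 10 genes was not tested.

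The other genes of the pathway were read from a list of 72, of which 71 had a row and were tested. March6 is not analysed here. None of the 71 passed the adjusted threshold (limma), and 5 had an unadjusted p under 0.05, 4 lower and 1 higher in MA, where 5.46% and 4.99% of all tested genes did. The median log2 fold change was -0.045, with 42 lower and 29 higher. The MA libraries lay below all Control libraries in 13 of 71 (18.3%) and above in 3, beside 10.2% and 7.32% of all tested genes. The median of the 71 was -0.015 with sample quality weights or a minimum mean of 5 RPKM, -0.016 without Control replicate 3 and -0.020 without MA replicate 3. It was -0.067 without MA replicate 1 and -0.060 without MA replicate 2.

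By place, the lumenal genes had a median of -0.093 over 17 genes and the membrane and ligase genes one of -0.050 over 32. The cytosolic genes around Vcp had 0.011 over 22. The groups did not overlap, with MA lower, in 4 of the lumenal (23.5%), 7 of the membrane (21.9%) and 2 of the cytosolic genes (9.09%), beside the same 10.2%. With MA higher they did not overlap in 1 lumenal and 2 cytosolic genes. The test of a difference between these places was not run.

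Among the lumenal genes, Dnajb11 (ERdj3), a co-chaperone of BiP that binds unfolded clients, had log2 values of 5.40, 5.24 and 5.31 in Control and 4.76, 4.70 and 4.99 in MA. The difference on that scale was -0.51 (limma adjusted p = 0.150), and without MA replicate 3 it was -0.59 (limma adjusted p = 0.0274). Calr, the calcium-binding lectin chaperone calreticulin, was at 7.95, 7.61 and 7.75 in Control and 7.35, 7.33 and 7.39 in MA, a log2 fold change of -0.41 (limma adjusted p = 0.219). In both genes each MA library lay below each Control library. Uggt2, a homologue of the folding sensor glucosyltransferase, was the gene on the other side, at 2.67, 2.61 and 2.61 in Control and 2.88, 3.12 and 2.93 in MA. Its log2 fold change was 0.35 (limma adjusted p = 0.305), and it shares exonic bases with Gm16835 on the other strand.

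Derl3, the third Derlin and a strongly stress-induced one, was scarce, at 1.40, 1.24 and 1.07 in Control and 0.83, 0.80 and 1.03 in MA. The log2 fold change of -0.35 (limma adjusted p = 0.417) understates the change of a gene this low if an offset of 1 was added before the log. Yod1, a deubiquitinase that works with Vcp, was at 1.95, 2.09 and 2.02 in Control and 1.67, 1.73 and 1.83 in MA, with a log2 fold change of -0.28 (limma adjusted p = 0.413). It shares exonic bases with Pfkfb2 on the other strand.

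Lumenal chaperones known as targets of the UPR were read for reference. This list was drawn up after earlier results of these data had been seen, so its counts and median describe the chosen genes only. All 8 of its genes had a negative log2 fold change, and the median was -0.82. An unadjusted limma p under 0.05 was reached by 7 of 8, beside 5.46% of all tested genes lower in MA. The adjusted threshold was passed by 3 of 8, beside 0.263% of tested genes in both directions. The 3 were Hspa5 (BiP, the main ER chaperone), Sdf2l1 and Manf. Of 6 sensors and factors, 2 had an unadjusted limma p under 0.05, Xbp1 and Atf4, both lower in MA, beside the same 5.46%. The median was -0.20. The study had itself drawn Hspa5, Sdf2l1, Pdia4 and Xbp1 from these libraries, so these lists are not independent evidence of direction. Manf, a secreted ER stress protein, was at 7.83, 7.49 and 7.65 in Control and 6.84, 6.82 and 6.77 in MA, a log2 fold change of -0.85 (limma adjusted p = 0.0315). Those of Hspa5, Sdf2l1 and Xbp1, the factor that the sensor Ern1 activates, were -0.90, -1.36 and -0.82 by the column names, and Sdf2l1 is one of the genes for which the study describes the other direction. Manf, Sdf2l1, Hspa5 and Xbp1 each lost their call in 5 of the 6 fits that left out 1 library. Hspa5 minus Herpud1 within a library was 2.44, 2.34 and 2.40 in Control and 1.93, 1.93 and 1.78 in MA, so the chaperone stood nearer to Herpud1 in each MA library than in any Control library.

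**Figure D4:**
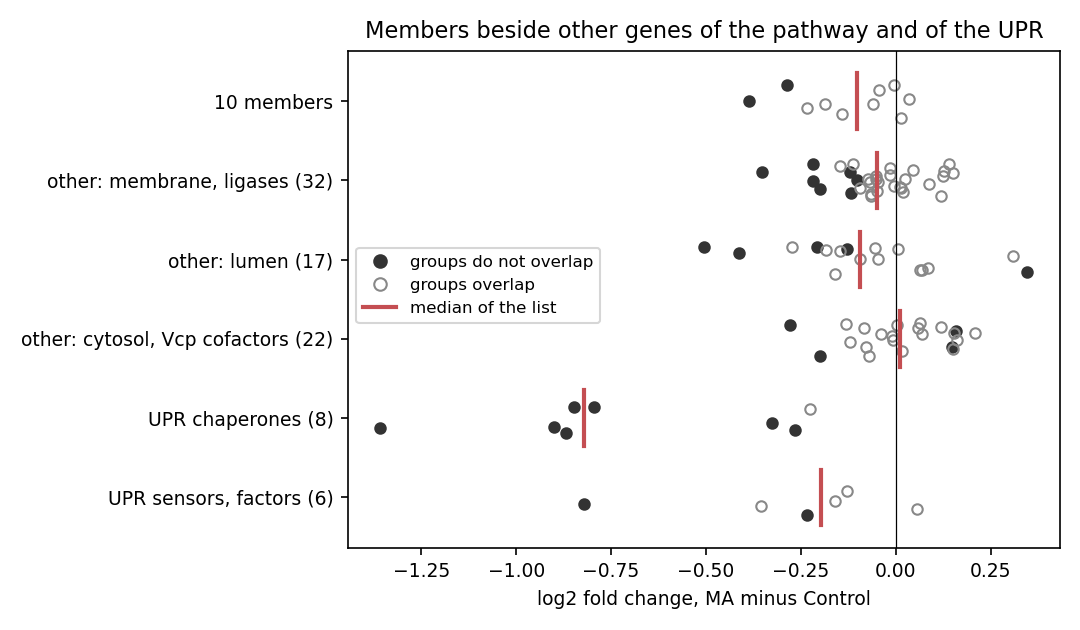
Log2 fold change (MA minus Control, x axis) of the 10 ER-associated degradation genes, of other genes of the pathway by place, and of chaperones and sensors of the unfolded protein response (UPR), with the number of tested genes in brackets. Filled points are genes whose groups do not overlap, open points those that overlap, and red lines the median of each list, which is -0.10 for the 10 members and -0.82 for the UPR chaperones.

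Beside the sequences shown above, the gene with ERSE-II (Herpud1) had a log2 fold change of -0.39, the gene with ERSE (Syvn1) one of -0.14 and the gene with the UPR element core (Vcp) one of 0.015. Sel1l, with -0.29, had none of these elements in its window. In the other pathway genes, Dnajb11 held an ERSE-II that starts 8 bases into the transcript, and Derl3, Calr and Canx held an ERSE. Canx, the membrane lectin chaperone calnexin, had a log2 fold change of 0.0069. A match is a description of the sequence, and binding was not measured here.

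Across the 6 libraries, the tested genes outside the 10 whose values followed Herpud1 most closely were Pdia3 (Pearson r = 0.983), Zfp946 (0.982), Dbil5 (0.976), Calr (0.974) and Txndc5 (0.973). The 6 points share the group difference and the libraries, and these 5 are the highest over all tested genes, so they describe the pattern only.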

How the data were processed

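RNA-seq of the hippocampus of 3 Control and 3 MA mice was analysed, with each library described as 1 mouse. In the study's methods, reads were aligned with Hisat2, counted with featureCounts and converted to FPKM by gene length. The submitters' processing notes name Bowtie 0.12.2 and the builds mm8 and mm9, so the build and aligner behind the table are uncertain, and GRCm38 coordinates (GENCODE M21) are given for location only. The authors deposited a single RPKM matrix in which the numbers are logarithms, taken to be log2 of RPKM plus 1. All 6 libraries share the highest value of 12.2976, so a normalization between libraries, not described, had been applied. Library depth is unknown.

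The 10 genes and the lists were chosen with earlier results of these data known. Groups were compared on the log2 scale with limma 3.58.1 in R 4.3.3 (lmFit, eBayes with trend, Benjamini-Hochberg adjustment), without covariates, over 13321 rows that reached 0.5 RPKM (2 to the power of the value, minus 1) in 3 or more libraries. The 14 alternatives were no filter, a minimum mean of 5 RPKM, a pseudocount of 0.1, median centring, quantile normalization, eBayes without trend, sample quality weights, the replicate number as a block, and each of the 6 libraries left out. The fitting code was tested on simulated data. Pathway genes were named at an unadjusted p under 0.05, the UPR genes by smallest p, with Atf4 added after its values were seen. Promoter sequences are RefSeq's, GRCm38.p6.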

Additional observations from a re-analysis of the deposited data

How the results depend on the processing

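Over 14 alternatives, no member of the 10 passed the adjusted threshold, and Herpud1 stayed between -0.49 and -0.32 (log2). Sel1l stayed between -0.34 and -0.19. The number of members at an unadjusted p under 0.05 was 1 with the replicate block (Herpud1), 3 with sample quality weights (Herpud1, Derl2 and Syvn1, not Sel1l) and 1 to 2 with each library left out. Small differences changed sign. Edem3 was 0.072 and Derl1 0.015 with sample quality weights. With 1 library left out, Edem2 ranged from -0.16 to 0.052, Edem3 from -0.17 to 0.12, Derl1 from -0.046 to 0.040, Os9 from -0.022 to 0.087 and Vcp from -0.011 to 0.065. Edem1 could not be fitted with a minimum mean of 5, which it does not reach.

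Of the 71 other pathway genes, those lower at an unadjusted p under 0.05 numbered 4, and 2 with a minimum mean of 5, 2 with the replicate block, 10 with sample quality weights, and 2 to 8 with 1 library left out. Those higher numbered 1, and 8 with the weights and 1 to 10 with 1 library left out. With the weights, 1789 of all 13321 tested genes were lower and 1715 higher at that threshold. The largest counts with 1 library left out came without MA replicate 3, where 1512 tested genes (11.4%) were lower and 1591 higher. Adjusted calls were 3 with the weights, beside 586 over all tested genes. With 1 library left out they were 0 to 1, and the call without MA replicate 3 was Dnajb11, beside 257.

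Over all tested genes, 35 adjusted calls became 3 with no filter, 20 with a minimum mean of 5, 586 with the weights, 15 with the replicate block and 0 to 257 with 1 library left out. The 727 genes lower at an unadjusted p under 0.05 became 463, 1789 and 372 with the minimum mean, the weights and the block, and 402 to 1512 with 1 library left out. The 665 higher became 381 and 1715 with the minimum mean and the weights, and 427 to 1591 with 1 library left out. The cause of these shifts was not tested. Same-numbered libraries deviated from their group means with correlations of -0.197, -0.242 and -0.337, so they showed no positive likeness. With 3 libraries per group, these values cannot show whether the replicate numbers stand for a pairing or a batch, and the labels name neither. The fit with the block is thus given only as an alternative. Depth is unknown, so what it limits cannot be stated.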

Other observations

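The promoter search was extended, after values were seen, to all tested genes. Of 19 tested genes with an ERSE in their window, 6 were lower in MA at an unadjusted p under 0.05 and 1 was higher (limma), and the MA libraries lay below all Control libraries in 7 of 19 (36.8%). The median log2 fold change was -0.12. The 6 were Hspa5, Pdia6, Creld2, Calr, Derl3 and Dnajc3, which are ER chaperones, co-chaperones or degradation genes, and the 1 higher gene was Acacb, an enzyme of fatty acid metabolism, at 0.91. Of 8 tested genes with an ERSE-II, 2 were lower at that threshold, Dnajb11 and Herpud1, and the median was 0.014. Of 110 genes with the UPR element core, 2 were lower and 2 higher, the median was 0.0040, and the groups did not overlap with MA lower in 6.36%. Of the 10239 tested genes with any window, 559 were lower and 486 higher, with non-overlapping lower groups in 10.3%. No test of these lists was made.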
